A study of Mus musculus with 2 samples.

Results

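The genes described here were the histone genes of the replication clusters, taken as every gene whose name begins with Hist1h, Hist2h, Hist3h or Hist4h. There were 67 of them among the 32285 genes counted, with 6 in family H1, 18 in H2A, 18 in H2B, 12 in H3 and 13 in H4. They were measured in THY-1+ germ cells of the mouse testis, a culture rich in spermatogonial stem cells that is kept on a layer of STO fibroblasts, a mouse feeder line. FGF9-treated cells received 20 ng/ml FGF9 for 48 h and control cells received no FGF9 for the same 48 h, with 1 single-cell library per treatment. Both libraries came from established cultures, given as passages 9 to 12 in the labels, although another label of the FGF9-treated library says 9 to 13. The labels list GDNF (20 ng/ml), GFRA1 (150 ng/ml) and FGF2 (1 ng/ml) in the culture medium of both. The methods describe a switch to medium with FGF9 or albumin only, and the study elsewhere describes the control cells as kept without growth factors. The labels do not say whether the listed factors were present during treatment. The cells of several mice were pooled in culture, so the libraries do not separate animals.

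Histone H2A, H2B, H3 and H4 form the core of the nucleosome, and H1, the linker histone, binds where DNA enters and leaves it. The replication-dependent genes for these proteins lie in clusters, lack introns in most cases, and are transcribed mainly in S phase, when new DNA needs new nucleosomes. Their mRNAs end in a short stem-loop, bound by SLBP, in place of the poly-A tail that other mRNAs carry. A method that catches RNA by its poly-A tail therefore sees only the fraction of histone transcripts that are polyadenylated or that prime elsewhere, and the levels below are levels of caught molecules. A few clustered genes are germ-line forms, among them Hist1h2aa and Hist1h2ba (known as TH2A and TH2B) and Hist1h1t (H1t), a linker histone of spermatocytes.

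Cells were kept with at least 2000 genes, at most 20% mitochondrial UMIs and fewer than 40 UMIs of Vim plus S100a6, which are fibroblast transcripts. This left 4537 FGF9-treated and 4157 control cells, with a median of 13067 and 14824 UMIs (unique molecular identifiers, 1 per captured molecule) and with 67068085 and 67689739 UMIs in total. The libraries shared 10 cell barcodes. All 10 germ cell markers on the list used, such as Dazl and Ddx4, were above 1 CPM (UMIs of a gene per 1000000 UMIs) in both libraries. Of 12 feeder markers, 6 reached 1 CPM in each library and none was at 0, and together they summed to 233 CPM in FGF9-treated and 167 CPM in control cells, against 19457 and 14366 CPM in the 63 and 31 cells left out by the Vim and S100a6 limit. Those cells also held germ cell markers (187 and 485 CPM in sum), so they are not free of germ cell RNA. With 1 library per treatment there is no replicate and no test between treatments. Intervals are exact 95% intervals for counting error only, and "higher" and "lower" describe these libraries.

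Poly-A capture caught most of the clustered genes, but few of them well. Of the 67 genes, 66 had at least 1 UMI, 51 had at least 20 UMIs over both libraries, 33 had at least 100, and 11 reached 10 CPM in a library. A further 21 lay between 1 and 10 CPM and the other 35 below 1 CPM. Hist2h2aa2 was the only one with no UMI, and its close copy Hist2h2aa1 had 12. The median cell held 6 histone UMIs among FGF9-treated cells and 5 among control cells, while 145 and 134 cells held none.

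The caught molecules were unevenly divided, and linker histone genes held most of them. Hist1h1a, Hist1h1b, Hist1h1c and Hist1h1e, the H1 genes that code for H1.1, H1.5, H1.2 and H1.4, together gave 64.2% of histone UMIs in FGF9-treated and 54.3% in control cells. Hist1h1a alone gave 28.8% and 27.5%. Core histone genes gave less. H2A gave 11.5% in FGF9-treated and 12.4% in control cells, H2B 10.6% and 15.96%, H4 10.0% and 11.4%, and H3 2.65% in FGF9-treated and 3.59% in control cells. Each UMI is counted once from the 3′ end, so the values need no division by gene length, but the share of each gene's molecules that is caught is unknown.

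**Figure D1:**
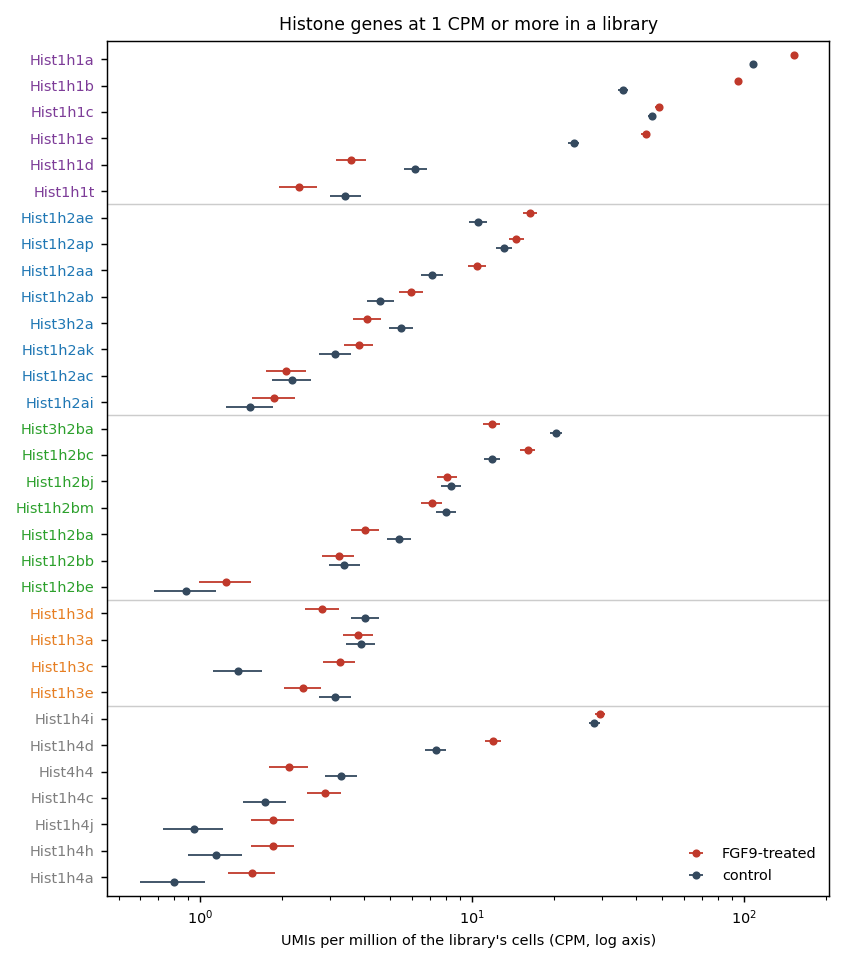
Levels of the 32 histone genes that reached 1 CPM in either library, on a log axis, with FGF9-treated cells (red) above control cells (dark) in each row; points are 1 library each and bars are 95% counting intervals. Gene names are coloured by family (H1, H2A, H2B, H3, H4 from top to bottom). Hist1h1a had the highest level in both libraries (153 and 108 CPM).

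Well and poorly caught genes both carried the histone stem-loop. A perfect stem-loop of 16 bases was sought within 100 bases of the stop codon, as a stem of 6 bases beginning GG, a loop of 4 bases beginning TT and the paired second arm. It was found in 44 of the 67 genes, in 6 spellings, and 13 genes have no annotated 3′ UTR to search. The most frequent spelling, in 26 genes, occurred in H1, H2A, H2B and H3 genes. All 11 matches in H4 genes had 1 of 3 other spellings, which no other family had. The following lines give the stem-loop in capitals with 5 flanking bases on each side, from the GENCODE transcripts, for genes whose levels are described below, so that the alike and unlike ends can be compared.
Hist1h1c: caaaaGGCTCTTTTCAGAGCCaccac
Hist1h1e: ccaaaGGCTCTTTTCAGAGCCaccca
Hist1h2ae: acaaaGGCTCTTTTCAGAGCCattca
Hist3h2ba: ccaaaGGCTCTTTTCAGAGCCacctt
Hist1h4d: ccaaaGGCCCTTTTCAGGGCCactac
Hist1h1t: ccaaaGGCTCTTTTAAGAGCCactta
Hist1h4i: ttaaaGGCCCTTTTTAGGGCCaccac
Hist1h4j: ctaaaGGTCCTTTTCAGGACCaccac
The stem-loop was found in 7 of the 11 genes at 10 CPM or more, in 17 of the 21 between 1 and 10 CPM, in 11 of the 19 below 1 CPM with at least 20 UMIs, and in 9 of the 16 with fewer. What followed the stem-loop varied: the annotated transcript ran 840 bases past it in Hist1h1c, 1153 in Hist1h1e, 770 in Hist1h4d and 330 in Hist1h4i, but 3 in Hist1h2ap.

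A transcript that ended within 60 bases of the stem-loop was annotated for 1 of 11, 6 of 21, 8 of 19 and 6 of 16 genes in the same order of level. The poly-A signal AATAAA stood in the annotated 3′ UTR of 19 genes, which had a median of 188 UMIs, against 79.5 for the other 48. The split by stem-loop was alike, with a median of 194.5 UMIs in the 44 genes with it and 86 in the other 23. Both groups without the feature include the 13 genes that have no annotated 3′ UTR. A run of 6 or more A anywhere in the transcript was present in 7 of the 11 best caught genes and in 17 of all 67. Hist1h1a, the most abundant, had neither AATAAA nor such a run. It had no stem-loop match in its 48 annotated bases after the stop. Hist1h1b and Hist1h2aa had no annotated 3′ UTR. The part of these features in capture was not tested.

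Near-identical sequence limits what can be said of single core histone genes. Over the last 400 bases of each transcript, at least 50% of 50-base words were unique among the 67 genes for only 30 of them. Hist1h2ap shared all of its words with other H2A genes, and the 3′ end of Hist1h1e overlaps annotated Hist1h2be on the same strand, so the assignment of both is uncertain. Hist1h1a, Hist1h1b, Hist1h1c, Hist1h4i, Hist1h4d, Hist1h2bc and Hist3h2ba were fully unique by this measure.

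Clustered histone transcripts were together more abundant in FGF9-treated cells. Their sum was 531 CPM in FGF9-treated and 393 CPM in control cells (35597 and 26629 UMIs), a log2 ratio of 0.43 (0.41 to 0.46) or 1.35-fold. The family sums differed. H1 was higher, with 346 CPM in FGF9-treated and 223 CPM in control cells (log2 0.64, 0.61 to 0.66), and H2A and H4 were higher by less (log2 0.32 and 0.25). H2B was lower, with 56.2 CPM in FGF9-treated and 62.8 CPM in control cells (log2 -0.16, -0.22 to -0.10), and the H3 sums could not be told apart (14.1 CPM in both, log2 -0.01, -0.14 to 0.12). Without the H1 genes, a sum chosen after the data were seen, the log2 ratio was 0.11 (0.08 to 0.15). The median log2 ratio over the 51 genes was 0.24, and -0.03 over all 17240 genes with at least 20 UMIs.

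A ratio past 1.5-fold was counted as a difference in size, with no test. It was passed upwards by 12 of the 51 genes, against 11.0% of all genes, and downwards by 4, against 10.9% of all genes. Counting intervals lay above 0 for 19 genes, below 0 for 8 and held 0 for 24. The share over all genes was not counted for intervals, which are narrow for genes with many UMIs. Of 17 genes for histone mRNA transcription, processing and decay, 5 lay above 0 and 8 below. H4 had 5 of its 10 genes past 1.5-fold upwards and H2A 3 of 11, whereas in H2B 13 of 15 and in H3 7 of 9 were within 1.5-fold. With a minimum of 100 UMIs, 9 of 33 were past it upwards, against 8.07% of all genes, and 3 downwards, against 7.84%.

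**Figure D2:**
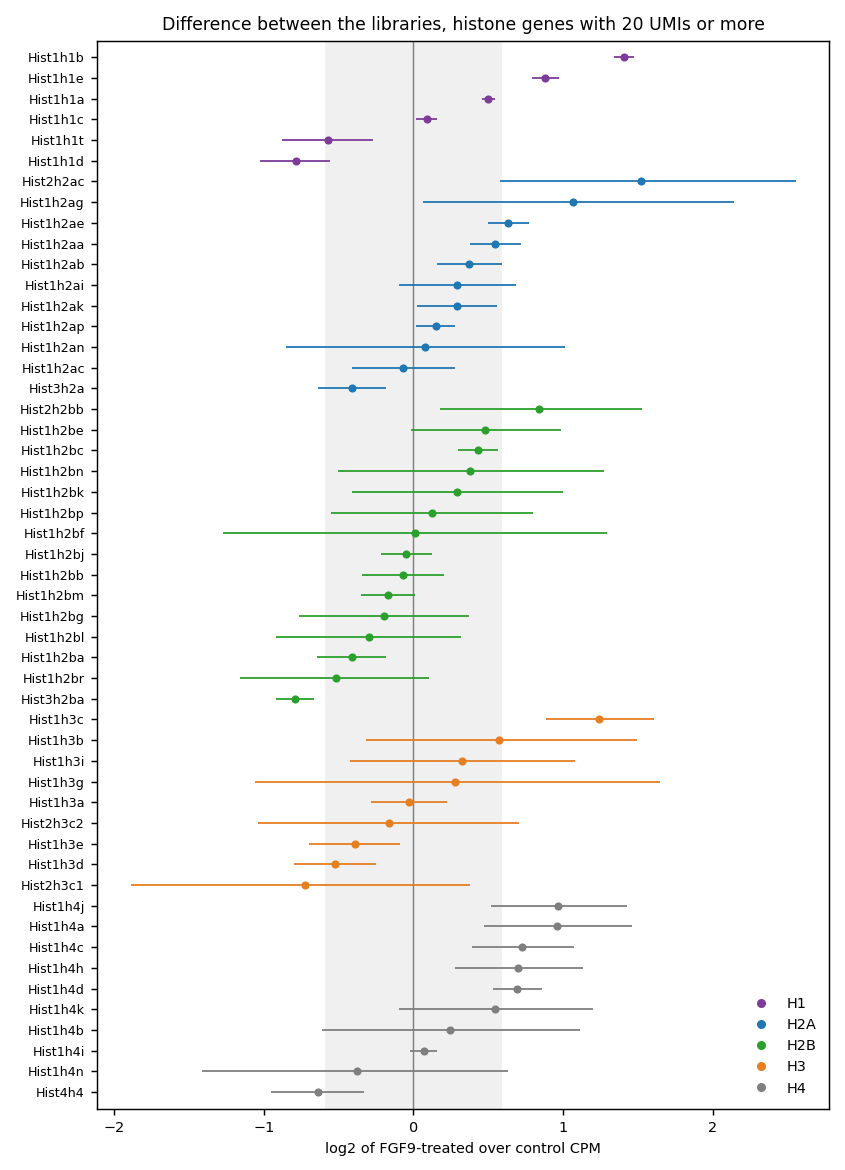
log2 ratio of FGF9-treated over control CPM for the 51 histone genes with at least 20 UMIs, grouped by family (colour) and sorted within it; bars are exact 95% counting intervals and the grey band marks ratios within 1.5-fold. H1 genes span from -0.79 (Hist1h1d) to 1.41 (Hist1h1b), and the wide bars belong to genes with few UMIs.

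Among the linker histones, Hist1h1b (gene ENSMUSG00000058773, chr13:21779883-21780625 on mm10, minus strand) had the largest ratio of the genes at 10 CPM or more. It had 95.3 CPM (92.97 to 97.7) in FGF9-treated and 35.9 CPM (34.5 to 37.4) in control cells, a 2.65-fold ratio (log2 1.41, 1.34 to 1.48). Its share of all H1 UMIs, counting also the replication-independent genes H1f0 and H1fx, was 21.5% in FGF9-treated and 12.2% in control cells. A UMI of Hist1h1b was found in 26.6% of FGF9-treated and 12.8% of control cells thinned to equal depth (5000 UMIs per cell), against 15.9% and 9.68% of the cells past the Vim and S100a6 limit. Both shares lay within the intervals of those cells (7.88% to 27.3% and 2.04% to 25.8%), which are not a class known to lack the gene.

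The other H1 genes differed in ratio. Hist1h1a (chr13:23763666-23764406, plus strand) had 153 CPM in FGF9-treated and 108 CPM in control cells (log2 0.50, 0.46 to 0.54). Hist1h1e (chr13:23620629-23622558) had 43.5 CPM in FGF9-treated and 23.6 CPM in control cells (log2 0.88, 0.79 to 0.97). Hist1h1c (chr13:23738808-23740367) had 48.7 CPM in FGF9-treated and 45.8 CPM in control cells (log2 0.09, 0.02 to 0.16). Hist1h1d, which codes for H1.3, was lower, with 3.58 CPM in FGF9-treated and 6.18 CPM in control cells (log2 -0.79, -1.02 to -0.55). Of the 5 somatic H1 genes, Hist1h1b and Hist1h1e were past 1.5-fold upwards and Hist1h1d past it downwards, all on chromosome 13.

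The promoters of these 5 genes are shown because the genes differed in ratio. Each line gives the 150 bases before the RefSeq start site (GRCm38.p6) in the direction of transcription, at chr13:23763518-23763667, chr13:21780626-21780775 (minus strand), chr13:23738657-23738806, chr13:23622559-23622708 (minus strand) and chr13:23554882-23555031, with matches in capitals to the H1 box (AAACACA), the CCAAT box (CCAAT) and the TATA box (TATAAA), sought on both strands. A match that crosses the edge of the stretch is capitalised in part.
Hist1h1a: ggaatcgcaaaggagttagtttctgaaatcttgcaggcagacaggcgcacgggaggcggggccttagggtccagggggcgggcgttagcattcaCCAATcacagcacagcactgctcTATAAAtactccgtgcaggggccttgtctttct
Hist1h1b: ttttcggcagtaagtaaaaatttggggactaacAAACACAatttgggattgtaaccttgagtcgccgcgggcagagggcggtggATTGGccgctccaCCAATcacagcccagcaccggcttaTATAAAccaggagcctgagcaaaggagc
Hist1h1c: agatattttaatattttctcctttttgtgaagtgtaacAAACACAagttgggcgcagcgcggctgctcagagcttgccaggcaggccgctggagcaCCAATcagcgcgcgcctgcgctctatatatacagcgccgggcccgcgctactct
Hist1h1e: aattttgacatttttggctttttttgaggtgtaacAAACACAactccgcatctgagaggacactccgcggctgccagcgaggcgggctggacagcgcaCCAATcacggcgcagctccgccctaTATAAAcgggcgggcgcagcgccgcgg
Hist1h1d: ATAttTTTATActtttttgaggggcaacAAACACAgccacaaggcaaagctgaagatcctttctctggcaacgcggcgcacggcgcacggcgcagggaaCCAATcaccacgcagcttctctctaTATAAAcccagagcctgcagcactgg
All 5 stretches hold CCAAT, and in Hist1h1a, Hist1h1b, Hist1h1c and Hist1h1e its first base lay at -56, -53, -54 and -52 from the start. AAACACA was found in all of them but Hist1h1a, with its first base at -117 in Hist1h1b, -112 in Hist1h1c and -115 in Hist1h1e. It was not found in the whole 300 bases searched for Hist1h1a. TATAAA was found in all but Hist1h1c. Over all 62 windows of 61 matched histone genes, CCAAT was present in 85.5%, TATAAA in 56.5%, AAACACA in 14.5%, the octamer ATTTGCAT in 22.6%, the E2F letters TTTCGCGC in 14.5% and TGACGTCA in 6.45%. Of all 32851 RefSeq promoter windows of this length, these were in 37.4%, 13.6%, 7.18%, 1.74%, 0.323% and 1.79%. AAACACA was in 5 of 6 H1 windows, and the octamer in 7 of 17 H2A and 7 of 17 H2B windows but in none of the other families. Windows of neighbouring H2A and H2B genes can overlap, as for Hist1h2aa and Hist1h2ba (below), so the same site can be counted in both. A match describes letters, not a bound site.

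Of the H4 genes, which code for the same protein, Hist1h4i (chr13:22040636-22041362) was the best caught and was almost level, with 29.5 CPM in FGF9-treated and 28.2 CPM in control cells (log2 0.07, -0.02 to 0.16). Hist1h4d had 11.9 CPM in FGF9-treated and 7.36 CPM in control cells (log2 0.70, 0.53 to 0.86). Hist1h4j and Hist1h4a, both little caught, had 1.85 and 1.55 CPM in FGF9-treated cells and 0.945 and 0.798 CPM in control cells (log2 0.97 and 0.96). Hist4h4, the single member on chromosome 6, was lower, with 2.12 CPM in FGF9-treated and 3.29 CPM in control cells (log2 -0.64, -0.95 to -0.33).

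H2A, H2B and H3 each held genes on both sides. Hist1h2ae had 16.3 CPM in FGF9-treated and 10.5 CPM in control cells (log2 0.63, 0.50 to 0.77), and Hist1h2ap 14.5 and 13.1 CPM (log2 0.15, 0.02 to 0.28). Hist3h2ba, an H2B gene of the small cluster on chromosome 11 (chr11:58948920-58949533), was the lowest of all 51, with 11.8 CPM in FGF9-treated and 20.4 CPM in control cells (log2 -0.79, -0.92 to -0.66). Only 2 and 0 UMIs of it were found in the cells past the Vim and S100a6 limit. Hist2h2ac, whose 1.52 was the highest log2 ratio of all 51, rested on few UMIs (37 in FGF9-treated and 13 in control cells). Among H3 genes, Hist1h3c had 3.25 CPM in FGF9-treated and 1.37 CPM in control cells (log2 1.24, 0.89 to 1.61), whereas Hist1h3d had 2.80 and 4.03 CPM (log2 -0.52, -0.80 to -0.25).

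Hist1h2bc, a spliced H2B gene, had 15.98 CPM in FGF9-treated and 11.8 CPM in control cells (log2 0.43, 0.30 to 0.57). It was the most abundant clustered histone gene of the cells past the Vim and S100a6 limit, at 466 CPM in the FGF9 and 491 CPM in the control library, and a UMI of it was found in 65.1% and 77.4% of them at equal depth, against 6.09% of FGF9-treated and 4.47% of control cells kept. Feeder markers summed to 233 CPM in FGF9-treated and 167 CPM in control cells kept (above). The part of feeder RNA in the Hist1h2bc ratio was not tested. With the limit at 10 UMIs in place of 40 the ratio was 0.45, and with no limit 0.75. Hist1h4i was also high in those cells (162 and 103 CPM) and its ratio with no limit was 0.19.

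The germ-line variants were caught, at low levels, and differed in direction. Hist1h2aa (gene ENSMUSG00000060081, chr13:23934462-23934851, plus strand) had 10.4 CPM (9.64 to 11.2) in FGF9-treated and 7.12 CPM (6.499 to 7.79) in control cells (log2 0.55, 0.38 to 0.72). Hist1h2ba (gene ENSMUSG00000050799, chr13:23933773-23934156, minus strand) had 4.04 CPM (3.57 to 4.55) in FGF9-treated and 5.38 CPM (4.84 to 5.96) in control cells (log2 -0.41, -0.64 to -0.18). Hist1h1t (chr13:23695814-23696725) had 2.30 CPM (1.95 to 2.69) in FGF9-treated and 3.41 CPM (2.99 to 3.88) in control cells (log2 -0.57, -0.88 to -0.27). None of these 3 ratios was past 1.5-fold, and none of the intervals held 0.

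In cells thinned to 5000 UMIs, Hist1h2aa was found in 4.39% of FGF9-treated and 3.16% of control cells, Hist1h2ba in 1.86% and 2.54%, and Hist1h1t in 1.09% and 1.42%. In the cells past the Vim and S100a6 limit, which should lack them, Hist1h2aa was found in 1 of 63 and 0 of 31, and the other pair in none, which allows shares of up to 4.76% and 9.68%. With so few such cells, these limits do not set the shares of kept cells apart from background. Over all UMIs of the cells past the limit, Hist1h2aa had 1 UMI in each library, Hist1h2ba had none in either, and Hist1h1t had 0 in the FGF9 and 1 in the control library. For Hist1h2aa this was 0.537 CPM in the FGF9 and 1.44 CPM in the control library, against 10.4 and 7.12 CPM in kept cells. For Hist1h2ba it was 0 in both, against 4.04 and 5.38 CPM. For Hist1h1t it was 0 and 1.44 CPM, against 2.30 and 3.41 CPM. As counted, all 3 levels were thus higher in kept cells. The levels past the limit rest on 0 or 1 UMI each, and no interval was computed for them. How firmly the levels differ is therefore not known, least so in the smaller control class.

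Hist1h2aa and Hist1h2ba stand head to head, with 305 bases between the annotated genes, and their promoter windows overlap. The 220 bases that both windows hold (chr13:23934187-23934406, GRCm38.p6, plus strand, Hist1h2aa to the right) are printed because the pair differed in direction while sharing them; capitals mark the same motifs as above and the octamer, with the match at the right edge shown in part.
Hist1h2aa and Hist1h2ba: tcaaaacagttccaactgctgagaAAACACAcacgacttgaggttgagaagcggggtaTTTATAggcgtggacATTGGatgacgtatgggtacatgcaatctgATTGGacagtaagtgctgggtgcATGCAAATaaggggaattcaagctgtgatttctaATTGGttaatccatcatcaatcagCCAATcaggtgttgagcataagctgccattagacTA
The stretch holds the letters of the octamer, of CCAAT on both strands and of AAACACA, and TATAAA read towards Hist1h2ba. By position on chromosome 13, genes fell into 4 blocks separated by over 100000 bases. Their median log2 ratios were 0.22, 0.18, 0.32 and 0.07, and within 3 of the 4 blocks single ratios ran over a range wider than 1 on the log2 scale.

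Histone level was next read against Pclaf, a PCNA-associated factor of S phase, and Mki67, the proliferation marker Ki-67. Status was set by at least 1 UMI in cells thinned to 5000 UMIs, which left 4515 FGF9-treated and 4141 control cells. Pclaf was found in 14.7% (13.7 to 15.8) of FGF9-treated and 2.95% (2.45 to 3.51) of control cells, and Mki67 in 25.9% (24.6 to 27.2) and 9.51% (8.64 to 10.4). Unthinned, the shares were 27.9% and 7.46% for Pclaf and 37.8% and 20.0% for Mki67. In the cells past the Vim and S100a6 limit, which may themselves divide, Pclaf was found in 10 of 63 and 0 of 31 and Mki67 in 10 of 63 and 1 of 31. The Pclaf share of FGF9-treated cells was therefore not above that of those cells, and is given as a share with a UMI, not of dividing cells. Free RNA can give such UMIs, and its part was not tested.

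Pclaf-positive cells held more histone UMIs than Pclaf-negative cells in both libraries. In the FGF9 library they had 902 CPM against 469 CPM in negative cells (log2 0.94, 0.88 to 1.00), and in the control library 549 against 403 CPM (log2 0.45, 0.29 to 0.61). Mki67-positive cells had 762 CPM against 453 CPM in negative cells in the FGF9 library (log2 0.75, 0.70 to 0.81) and 481 against 399 CPM in the control library (log2 0.27, 0.17 to 0.37). The difference of the log2 ratios, FGF9 minus control, was 0.50 (0.33 to 0.67) for Pclaf and 0.48 (0.37 to 0.60) for Mki67, by counting error alone. It was not shared by all families. By Pclaf it was 0.71 (0.49 to 0.94) for H1, and the intervals of H2A, H2B, H3 and H4 spanned both signs. By Mki67 it was 0.64 (0.49 to 0.79) for H1, 0.63 (0.30 to 0.96) for H2A and 0.77 (0.16 to 1.38) for H3. The Mki67 intervals of H2B and H4 spanned both signs. The control values rest on 122 Pclaf-positive and 394 Mki67-positive cells. Without barcodes of over 2.5 times the median UMIs, the control Pclaf ratio was 0.26. Sums of other gene lists, described below, were read in the same way. For the 24 S phase genes the Pclaf ratio was 1.02 in the FGF9 and 0.70 in the control library. The difference was 0.32 (0.23 to 0.40) for Pclaf and 0.41 (0.35 to 0.46) for Mki67. For the 16 G2 and mitosis genes it was 0.25 and 0.34, and for histone genes outside the clusters 0.06 and 0.08. A larger ratio in the FGF9 library was thus not particular to clustered histones.

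**Figure D3:**
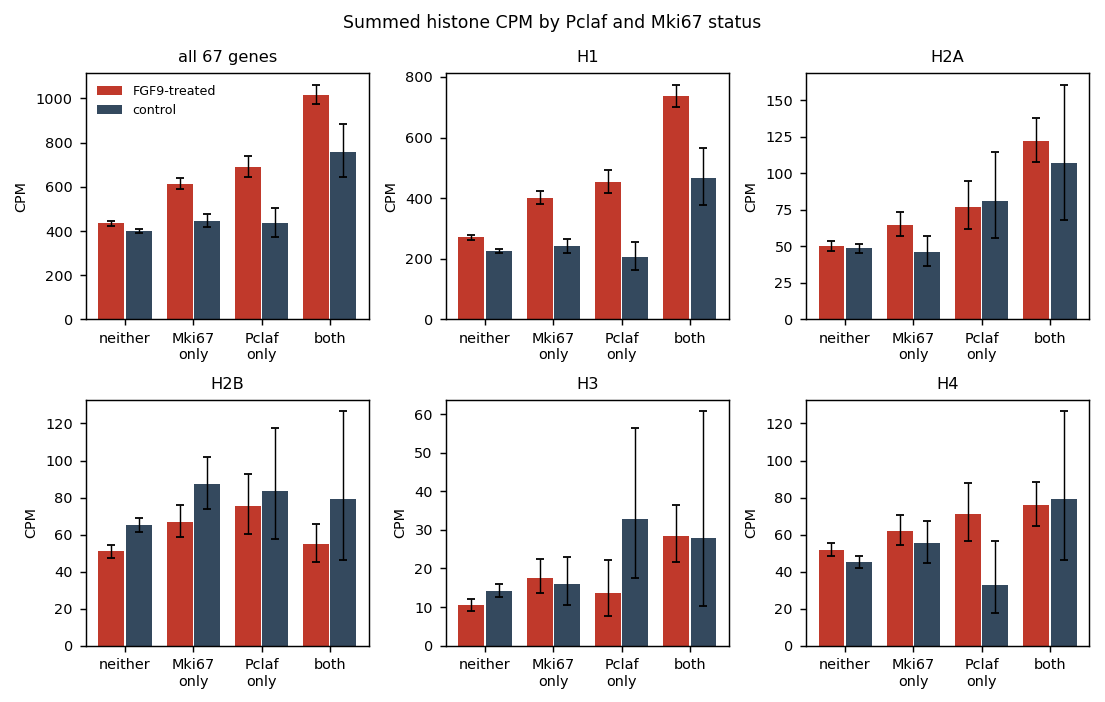
Summed CPM of all 67 histone genes and of each family in cells with neither Pclaf nor Mki67, with either alone and with both, after thinning to 5000 UMIs; FGF9-treated cells (red) are left of control cells (dark) and bars are 95% counting intervals. In the FGF9 library the total runs from 435 CPM in cells with neither to 1018 CPM in cells with both.

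With status set from both genes, the total was highest in cells with both in each library. FGF9-treated cells with neither had 435 CPM, with Mki67 only 613, with Pclaf only 691 and with both 1018 CPM. Control cells had 399, 447, 435 and 758 CPM in the same order, and the last rests on 43 cells and 163 UMIs. Cells with neither made up 68.9% of FGF9-treated and 88.6% of control cells and gave 56.3% and 86.7% of the histone UMIs. Cells with both made up 9.52% and 1.04% of cells and gave 18.2% and 1.93% of the UMIs.

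Within cells of the same status, the histone sum still differed between the libraries. The log2 ratio of FGF9-treated over control cells was 0.13 (0.08 to 0.17) in cells with neither, 0.46 (0.34 to 0.58) with Mki67 only, 0.67 (0.43 to 0.91) with Pclaf only and 0.42 (0.19 to 0.66) with both. The last was 0.99 without barcodes of over 2.5 times the median UMIs and 1.01 with status from 2 UMIs. The H1 sum had ratios of 0.27, 0.73, 1.15 and 0.66 in the same classes, and without H1 the ratios of all other genes were -0.09, 0.05, 0.04 and -0.06. H2B was lower in FGF9-treated cells with neither (log2 -0.35, -0.49 to -0.22) and with Mki67 only (-0.38, -0.68 to -0.08). The sum of the 24 S phase genes had ratios of 0.15, 0.50, 0.68 and 0.19 in the same classes. That of the 16 G2 and mitosis genes had -0.15, 0.26, 0.39 and -0.04. Cells of the same status thus differed between the libraries in S phase genes as well.

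The ratios of Hist1h1a and Hist1h1b ran differently over the classes. In cells with neither gene, Hist1h1a was at 100.5 CPM in FGF9-treated and 106 CPM in control cells (log2 -0.07, -0.17 to 0.02), and it was higher in FGF9-treated cells in each positive class, as in cells with both at 351 and 209 CPM (log2 0.75, 0.31 to 1.21). Hist1h1b was already higher in cells with neither, at 72.0 CPM in FGF9-treated and 36.8 CPM in control cells (log2 0.97, 0.83 to 1.11), and with Mki67 only at 106 and 43.9 CPM (log2 1.27, 0.92 to 1.64). In cells with both it was at 241 CPM in FGF9-treated and 177 CPM in control cells, and the interval held 0 (log2 0.45, -0.03 to 0.96). Hist1h1e resembled it in cells with neither, at 43.8 CPM in FGF9-treated and 23.4 CPM in control cells (log2 0.90, 0.73 to 1.08). Hist1h1c was level there, at 49.8 and 49.2 CPM (log2 0.02, -0.12 to 0.16). Status was set from 1 UMI, so cells with neither can include dividing cells in which no UMI of either gene was caught, and their part was not measured.

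**Figure D4:**
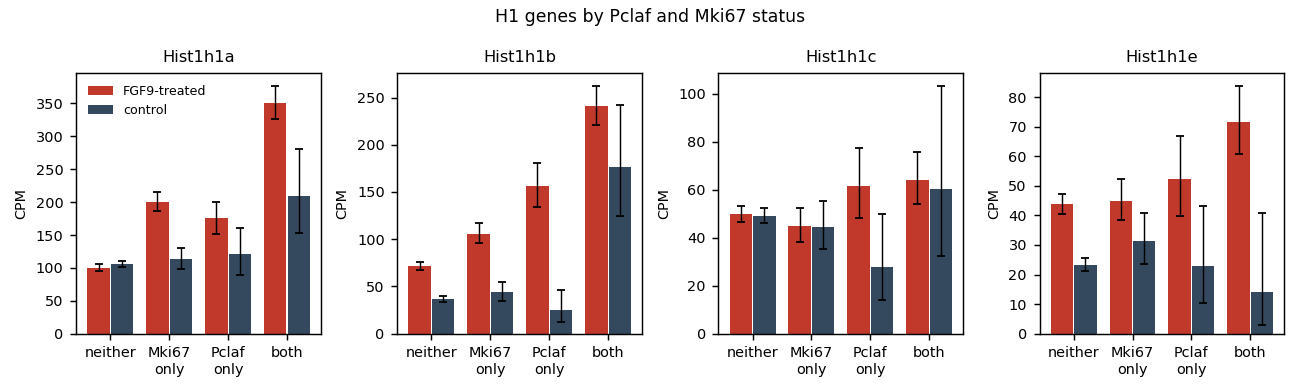
CPM of 4 H1 genes in cells with neither Pclaf nor Mki67, with either alone and with both, after thinning to 5000 UMIs; FGF9-treated cells (red) are left of control cells (dark) and bars are 95% counting intervals. Hist1h1a is level between the libraries in cells with neither (100.5 and 106 CPM), whereas Hist1h1b is at 72.0 and 36.8 CPM.

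By gene, the link to status was broad in the FGF9 library. Of 32 histone genes with at least 20 UMIs among thinned FGF9-treated cells, 20 were past 1.5-fold higher in Pclaf-positive than in Pclaf-negative cells, against 6.48% of all genes, and 3 were past it lower, against 10.1%. For Mki67 the counts were 18 higher, against 6.67% of all genes, and 2 lower, against 8.90%. In the control library, of 31 genes, 12 were higher with Pclaf, against 10.6% of all genes, and 4 lower, against 17.8%. With Mki67 they were 4 higher, against 7.21%, and 2 lower, against 10.7%. Some of these control counts rest on positive cells with fewer than 3 UMIs of the gene. All 4 genes lower with Pclaf did so (0 UMIs of Hist1h2ac and 1 each of Hist1h1t, Hist1h2bb and Hist4h4), as did Hist1h4a (1), Hist1h4c (2) and Hist1h2ai (2) among those higher with Pclaf and Hist1h2ac (2) among those lower with Mki67. The median log2 ratio of the histone genes was 0.75 (Pclaf) and 0.64 (Mki67) in the FGF9 library and 0.52 and 0.19 in the control library, against -0.03, -0.03, -0.02 and -0.02 for all genes. Intervals lay above 0 for 16 (Pclaf) and 15 (Mki67) genes in the FGF9 library and for 6 and 3 in the control library, where positive cells were fewer. No such count of intervals was made over all genes.

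Of the 32 genes that reached 20 UMIs after thinning in the FGF9 library, Hist1h3c had the highest Pclaf ratio, with 9.94 CPM in Pclaf-positive and 1.56 CPM in Pclaf-negative cells (33 and 30 UMIs, log2 2.67, 1.92 to 3.44). Hist1h1b had 211 CPM in Pclaf-positive and 78.5 CPM in Pclaf-negative cells (log2 1.43, 1.30 to 1.56) and Hist1h1a had 289 and 120 CPM (log2 1.27, 1.16 to 1.38). Hist1h2ae, Hist1h2ap and Hist1h4d lay between 1.08 and 1.13. Hist1h4i did not follow status, with 32.8 CPM in Pclaf-positive and 31.4 CPM in Pclaf-negative cells (log2 0.06, -0.24 to 0.36). Hist1h2bc was lower in Pclaf-positive cells, with 10.5 CPM in Pclaf-positive and 17.9 CPM in Pclaf-negative cells (log2 -0.77, -1.31 to -0.26). The low level lay in cells with both markers (5.12 CPM, 11 UMIs), against 20.5 CPM with Pclaf only and 17.2 CPM with neither. In the control library Hist1h2bc was higher in Mki67-positive cells, with 18.3 against 11.1 CPM in negative cells (log2 0.72, 0.17 to 1.23). Hist3h2ba was lower in Mki67-positive cells of the FGF9 library, with 8.05 against 13.1 CPM in negative cells (log2 -0.71, -1.19 to -0.25).

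Some links differed between the libraries by more than counting error. For Hist1h1a the Mki67 ratio was 1.28 in the FGF9 and 0.22 in the control library, a difference of 1.06 (0.84 to 1.28). For Hist3h2ba it was -0.71 in the FGF9 and 0.27 in the control library, a difference of -0.97 (-1.59 to -0.36). Hist1h1b was closer, at 1.00 in the FGF9 and 0.68 in the control library, a difference of 0.32 (0.01 to 0.63). By Mki67 the difference was also 1.09 (0.23 to 1.95) for Hist1h2aa, 0.85 (0.12 to 1.58) for Hist1h2ae and -0.91 (-1.52 to -0.29) for Hist1h2bc. By Pclaf it was 0.75 (0.43 to 1.07) for Hist1h1a and 0.68 (0.06 to 1.30) for Hist1h1c. Such a difference was not computed for every gene. Of the genes with a ratio in both libraries, the Pclaf ratio was larger in the FGF9 library for 19 of 30 and the Mki67 ratio for 24 of 31. The same count was not made over all genes. Sums of the S phase and of the G2 and mitosis genes also had larger ratios in the FGF9 library (above).

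**Figure D5:**
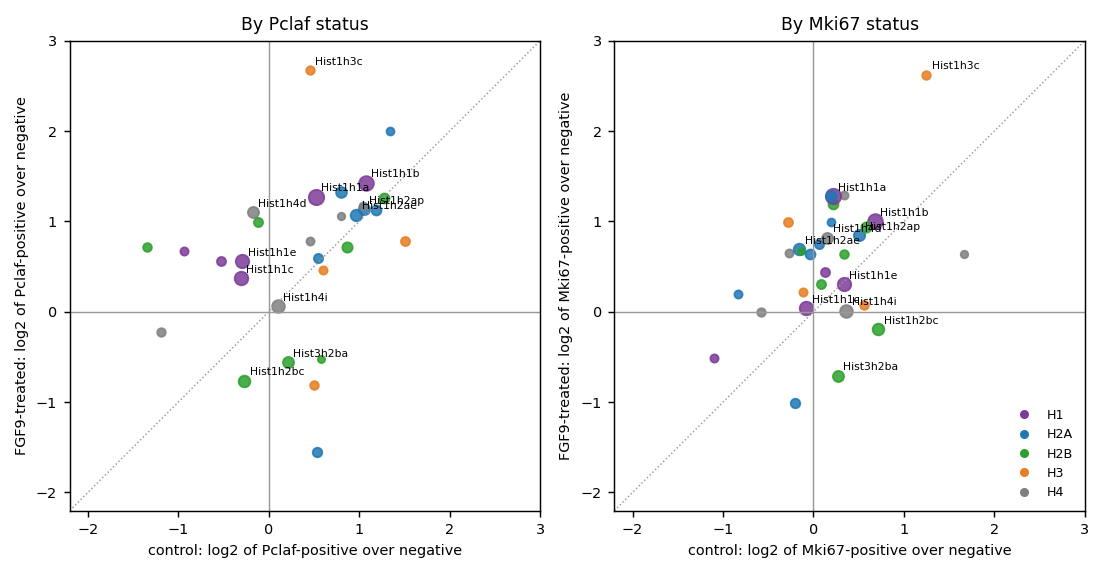
log2 ratio of positive over negative cells by Pclaf (left, 30 genes) and Mki67 (right, 31 genes), with the FGF9 library on the vertical and the control library on the horizontal axis; each point is 1 histone gene, coloured by family and larger with more UMIs, and the dotted line marks equal ratios. Hist1h3c is highest on the vertical axis in both panels (2.67 and 2.62).

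Of the germ-line genes, Hist1h2aa was higher in positive cells of the FGF9 library by both markers. It had 20.8 CPM in Pclaf-positive and 8.31 CPM in Pclaf-negative FGF9-treated cells (log2 1.32, 0.89 to 1.74), and 18.0 against 7.41 CPM by Mki67 (log2 1.28, 0.89 to 1.67). In control cells its interval held 0 for both (Pclaf log2 0.79, -0.55 to 1.88, from 7 UMIs in positive cells; Mki67 0.19, -0.69 to 0.97). Hist1h2ba had 6.63 CPM in Pclaf-positive and 3.32 CPM in Pclaf-negative FGF9-treated cells (log2 1.00, 0.23 to 1.71), and its Mki67 interval held 0 (0.31, -0.41 to 1.00). Hist1h1t had 11 UMIs in Pclaf-positive and 40 in Pclaf-negative FGF9-treated cells and its intervals held 0 for both markers.

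S phase genes and genes that serve the histone supply were read in the same cells. Beside the counts in this and the next paragraph, 11.0% of all genes were past 1.5-fold upwards and 10.9% downwards. With a minimum of 100 UMIs the shares were 8.07% and 7.84%. Of 24 S phase genes, 12 were past 1.5-fold higher in FGF9-treated cells and none lower, with a median log2 ratio of 0.58, and Rrm2, a ribonucleotide reductase subunit, had 22.2 CPM in FGF9-treated and 6.23 CPM in control cells (log2 1.83). Of 16 G2 and mitosis genes, 8 were higher and none lower (median 0.60), with Top2a, a topoisomerase, at 349 CPM in FGF9-treated and 161 CPM in control cells (log2 1.11). Of 17 genes for histone mRNA transcription, 3′ processing and decay, none was past 1.5-fold either way (median -0.06). Slbp, which binds the stem-loop, came nearest with 310 CPM in FGF9-treated and 210 CPM in control cells (log2 0.56), while Lsm10 and Lsm11 of the U7 particle that cuts histone mRNA had ratios of -0.27 and -0.20 and Npat, an activator of histone genes, 0.20. Of 18 histone chaperones, Nasp, a carrier of H1 and H3-H4, was the 1 past 1.5-fold, with 464 CPM in FGF9-treated and 266 CPM in control cells (log2 0.80), and none was lower.

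Histone genes outside the clusters, whose mRNAs are mostly polyadenylated, summed to more. The 14 found had 5301 CPM in FGF9-treated and 4566 CPM in control cells in all. Of 11 with at least 20 UMIs, Cenpa, the centromeric H3, had 250 CPM in FGF9-treated and 135 CPM in control cells (log2 0.89) and H2afy2, a macroH2A gene, had 44.3 and 24.2 CPM (log2 0.87). These were the pair past 1.5-fold, with none lower and a median log2 ratio of 0.36. H1fx, a linker histone gene outside the clusters, had 65.3 CPM in FGF9-treated and 46.2 CPM in control cells (log2 0.50). By Pclaf status their sum differed less than the clustered sum, with log2 ratios of 0.26 in the FGF9 and 0.20 in the control library.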

How the data were processed

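Single cells of 1 FGF9-treated and 1 control culture were captured with a 10x 3′ poly-A kit, and the authors deposited count matrices of UMIs per gene and barcode made with Cell Ranger (3.1.0 in the matrix header) on mm10, with no normalization. The labels also name Seurat 3.1. Gene structures came from GENCODE release M21 (GRCm38), which held 32235 of the 32285 gene IDs and all 67 histone genes, and promoters from RefSeq (GRCm38.p6) for 61 of them. No other per-sample column was left unused (0).

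Cells passed at least 2000 genes, at most 20% mitochondrial UMIs and under 40 UMIs of Vim plus S100a6. The counts of the 4537 FGF9-treated and 4157 control cells were summed per library and divided by 67068085 and 67689739 UMIs to give CPM. No doublet caller was run; leaving out barcodes of over 2.5 times the median UMIs was an alternative. Intervals (95%) were exact: Poisson for CPM, Clopper-Pearson for shares and conditional binomial for ratios. Intervals of a difference of ratios were approximate, from 4 counts. Ratios past 1.5-fold were counted among genes with at least 20 UMIs. Genes were named when they reached 10 CPM, were among the 5 highest or lowest ratios with at least 100 UMIs, or were germ-line forms, and up to 4 per list. Single genes chosen after their values were seen were Hist2h2ac, Hist2h2aa1, Hist2h2aa2, Hist1h2ac, Hist1h2ai, Hist1h2bb and Hist1h4c. Members and lists were chosen with earlier results of these data known. The computation was tested on simulated data. Python 3.11.15, numpy 2.4.6, scipy 1.17.1, R 4.3.3 and edgeR 4.0.16 (TMM factors only) were used. Alternatives were other cell filters, scalings, minimums, thinning depths and status rules.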

Additional observations from a re-analysis of the deposited data

Results flagged for a closer look

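Histone transcripts were also present in the barcodes that failed the filter on genes and mitochondrial UMIs, which no comparison above used. There the 67 genes had 234 CPM in the FGF9 library (876 UMIs in 1359 barcodes) and 197 CPM in the control library (612 UMIs in 1124 barcodes), against 531 and 393 CPM in the cells kept. They are given because these barcodes lie outside the main measurement and their level is above what a count of 0 allows. The source of these molecules was not tested.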

How the results depend on the processing

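With 1 library per treatment, differences between cultures and effects of FGF9 cannot be told apart, and genes with few UMIs allow only wide intervals. No paired analysis was possible because there is 1 library per treatment. The log2 ratio of the histone sum (0.43) was 0.46 with TMM factors, 0.47 with the median of gene ratios, 0.40 as the mean of per-cell CPM, 0.41 without Hist1h1a and 0.11 without the H1 genes. Of the 67 genes, 33 passed a minimum of 100 UMIs, against 51 at 20. A fold of 2 left 4 of 51 genes higher, against 5.05% of all genes, and 0 lower, against 4.58%. In FGF9-treated cells the Pclaf ratio (0.94) was 0.75 without thinning, 1.29 with status from 2 UMIs, 0.81 without Hist1h1a and 0.62 without H1. The Mki67 ratio (0.75) was 0.66, 0.88, 0.54 and 0.49 in the same order, and 0.82 without barcodes of over 2.5 times the median UMIs. In control cells the Pclaf ratio (0.45) was 0.21 without thinning, 0.24 thinned to 8000 UMIs, 0.73 from 2 UMIs and 0.26 without the large barcodes, and the Mki67 ratio (0.27) was 0.12 without thinning and 0.47 from 2 UMIs. Between libraries, the ratio in cells with neither marker (0.13) was 0.20 from 2 UMIs, 0.19 without Hist1h1a and -0.086 without H1. With Mki67 only (0.46) it was 0.27 without thinning, 0.30 without Hist1h1a and 0.047 without H1. With Pclaf only (0.67) it was 0.37 without thinning and 0.039 without H1. With both (0.42) it was 1.01 from 2 UMIs, 0.99 without the large barcodes and -0.058 without H1. The sums without H1 and of genes with mostly unique ends were added after the data were seen. The cause of these shifts was not tested. Of 112 values for 16 named genes, 110 moved by less than their counting interval and 2, Hist1h2bc and Hist1h4i without the Vim and S100a6 limit, by more, and none changed sign. The main results (sums, counts of genes and germ-line variants) were less stable. Of their values, 72 stayed within the counting interval or, for counts, within 1.5-fold, 32 moved by more and 2 changed sign. The 2 were the ratios without H1 in cells with neither marker and with both.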
